A study of Rattus norvegicus with 8 samples.

Results

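The contractile and actin-linked genes of the vessel wall were followed through the hippocampus of kindled rats. They were 9 of the 22601 genes listed in each library, taken by their NCBI GeneID: Acta2 (81633), Tagln (25123), Myl9 (296313), Cnn1 (65204), Tpm4 (24852), Flna (293860), Vcl (305679), Vasp (361517) and Rgs5 (54294). The 9 genes were chosen by measured values of these same libraries, in which they were high in treated rats, so their levels below are a description with no test, and the counts of called genes among them carry no support of their own. All 9 passed the filter on low values, set at 0.1 FPKM for the mean of the 8 libraries.

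Hippocampal RNA of wild type Wistar rats of 180 to 220 g was sequenced as 1 library for each of 3 Con., 3 PTZ and 2 Q808 rats. Pentylenetetrazole (PTZ) provokes seizures by blocking the GABA-A receptor, and small doses given again and again kindle the animal. The PTZ and Q808 groups were injected with PTZ at 35 mg/kg every 48 h, 14 times in 28 days, and with 60 mg/kg on the last day, while the Con. group was given saline. For the 28 days that followed, the Q808 group was gavaged daily with 30 mg/kg of Q808, an anticonvulsant compound, and the other groups with its solvent. The PTZ and Q808 groups were then injected once more with PTZ below the convulsive dose, so that both groups carry the kindling and this last injection, and Q808 was never given without PTZ. The meninges were removed before both hippocampi were dissected, and no vessel or cell type was isolated. Values are FPKM (fragments counted per kilobase of the transcript and scaled by all mapped fragments), a scale on which levels can be compared between genes.

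Arteries and arterioles are wrapped by smooth muscle cells, whose contraction sets blood flow, and capillaries by pericytes. In smooth muscle, myosin pulls on filaments of alpha smooth muscle actin (Acta2), with transgelin (Tagln), calponin (Cnn1) and the myosin regulatory light chain (Myl9) as typical parts of the apparatus. Tropomyosin (Tpm4), filamin A (Flna), vinculin (Vcl) and VASP (Vasp) coat, crosslink, anchor and extend actin filaments in many cell types, endothelium and glia among them, while Rgs5, a brake on G protein signalling, is a well known marker of brain pericytes. Many smooth muscle genes are activated by serum response factor (SRF) through the CArG box.

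Since several of these genes moved together, the 250 bases before the gene start were searched for the CArG box on both strands. RefSeq promoters of the GRCr8 assembly were found for 7 of the 9 genes, all but Tagln and Myl9. None of the 7 windows held a CArG box with only A or T in its 6 middle bases, which 1.5% of all 33469 promoters held. A CArG-like box, with 1 G or C among the middle bases, stood in 2 of the 7 windows and in 8.08% of all promoters. The 3 windows below are shown because Acta2 and Vasp held such a box and Cnn1, the gene with the widest range, held none. They lie on the minus strand at chr1:241172504-241172753 (Acta2) and chr1:88052956-88053205 (Vasp) and on the plus strand at chr8:28908187-28908436 (Cnn1), each printed 5′ to 3′ on the gene's strand, with CArG-like boxes in capitals.
Acta2: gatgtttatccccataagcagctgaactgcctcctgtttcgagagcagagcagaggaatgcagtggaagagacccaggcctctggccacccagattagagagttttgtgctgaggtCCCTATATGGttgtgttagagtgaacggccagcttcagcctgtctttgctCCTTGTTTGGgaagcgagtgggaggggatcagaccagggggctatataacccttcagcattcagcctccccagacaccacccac
Vasp: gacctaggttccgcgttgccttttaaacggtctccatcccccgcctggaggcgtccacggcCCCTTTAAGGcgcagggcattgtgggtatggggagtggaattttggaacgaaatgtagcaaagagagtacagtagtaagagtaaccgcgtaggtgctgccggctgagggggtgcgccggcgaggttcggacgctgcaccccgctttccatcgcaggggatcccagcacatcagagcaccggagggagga
Cnn1: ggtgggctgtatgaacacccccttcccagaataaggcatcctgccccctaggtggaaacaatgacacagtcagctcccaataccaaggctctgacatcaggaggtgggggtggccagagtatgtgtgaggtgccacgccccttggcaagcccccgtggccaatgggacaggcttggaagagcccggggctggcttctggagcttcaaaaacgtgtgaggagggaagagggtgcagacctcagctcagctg
The boxes of Acta2 began 134 and 84 bases before the gene start and that of Vasp 189 bases before it. A match is a run of letters and no binding was measured, and boxes outside these windows were not searched. The Vcl window opened with 9 bases that match the last 9 of a CArG box, whose first base lay outside it.

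Some libraries differed in ways that crossed the groups. Con.-3, PTZ-3 and Q808-1 stood apart in 7 striatal marker genes, whose summed FPKM was 1610, 739 and 758 in these libraries and 58.7 to 80.1 in the other 5, so values within each set of libraries are given beside the pooled ones where they differ. The set of 3 has 1 library per group. Relative depth, read from the smallest steps of the low FPKM, lay between 0.853 (PTZ-3) and 1.19 (Con.-2) times that of Con.-1. In tissue RNA, fewer cells of a type and less RNA per cell cannot be told apart.

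Acta2, Tagln and Myl9 were low in every Con. library and in PTZ-1 and PTZ-2, and high in PTZ-3 and both Q808 libraries. The FPKM of Acta2, the defining actin of smooth muscle, was 7.75, 12 and 4.77 in Con.-1 to Con.-3, 8.19, 6.03 and 26.9 in PTZ-1 to PTZ-3, and 20.9 and 25.3 in Q808-1 and Q808-2. Thus 1 of the 3 PTZ libraries lay above all others while the remaining PTZ libraries lay inside the Con. range, and both Q808 libraries lay above every Con. library. The mean FPKM was 8.16 ± 3.61 (SD, n = 3) in the Con. group, 13.7 ± 11.5 (n = 3) in the PTZ group and 23.1 ± 3.14 (n = 2) in the Q808 group.

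Tagln, an actin-binding protein of the same cells, had 19.7, 20.5 and 14.2 FPKM in the Con. libraries, 16.4, 14.7 and 61.9 in the PTZ libraries, and 38.5 and 49.7 in the Q808 libraries. Its pattern was that of Acta2, with the Con. and PTZ groups overlapping and the Q808 group above the Con. group. Group means were 18.2 ± 3.43, 31.0 ± 26.8 and 44.1 ± 7.98 FPKM in the Con., PTZ and Q808 groups. Over the 8 libraries Tagln was 1.72 to 2.98 times Acta2, a narrow band beside the 5.64-fold range of Acta2 itself.

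Myl9, which carries the phosphorylation site that starts contraction, was at 13.0, 14.7 and 8.89 FPKM in the Con. libraries, 14.8, 9.9 and 31.9 in the PTZ libraries, and 20.4 and 27.1 in the Q808 libraries. Again PTZ-3 was highest and Con.-3 lowest. Its means were 12.2 ± 3.0, 18.9 ± 11.5 and 23.7 ± 4.72 FPKM in the same order of groups. PTZ-3 exceeded the mean of PTZ-1 and PTZ-2 by 3.79-fold for Acta2, 3.98-fold for Tagln and 2.58-fold for Myl9, so the SD of the PTZ group reflects 1 rat set against 2.

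Cnn1, a calponin that restrains myosin and marks mature smooth muscle, was the scarcest of the genes. It measured 0.0484, 0.204 and 0.0488 FPKM in the Con. libraries, 0.268, 0.392 and 1.47 in the PTZ libraries, and 0.391 and 1.54 in the Q808 libraries. Every PTZ and Q808 library lay above every Con. library, and PTZ-3 and Q808-2 lay far above the rest. Scaled by relative depth, these FPKM were whole multiples of the smallest of them, taken as 1 step, to within 0.068 of a step. They came to 1, 5 and 1 steps in the Con. libraries, 6, 9 and 26 in the PTZ libraries, and 7 and 33 in the Q808 libraries. A step is the value of 1 fragment if fragments were counted whole and the smallest value was 1 fragment. The Con. level then rested on 7 in all, and the 7.09-fold (PTZ) and 9.62-fold (Q808) ratios of the means to the Con. mean are imprecise.

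**Figure D1:**
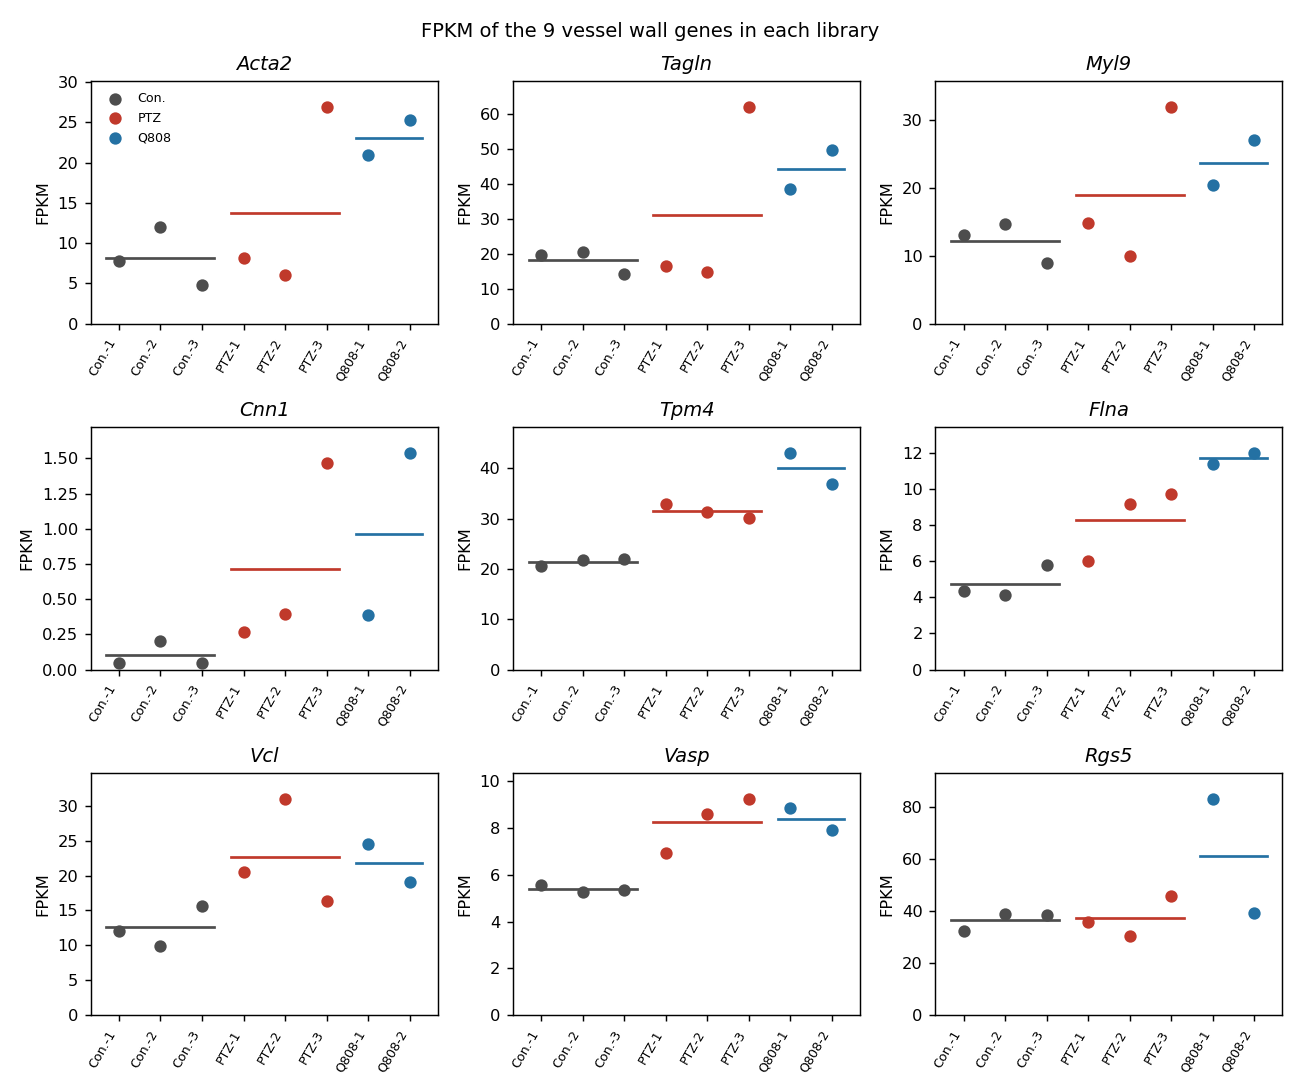
FPKM (y axis, linear from 0) of each of the 9 genes in the 8 libraries (x axis), with points coloured by group and horizontal lines at group means. Acta2, Tagln and Myl9 are high in PTZ-3, Q808-1 and Q808-2 only, Tpm4, Flna, Vcl and Vasp are above the Con. libraries in every PTZ and Q808 library, and Rgs5 is high in Q808-1 at 83.2.

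The actin-linked genes followed the groups more evenly. Tpm4, a tropomyosin that runs along actin filaments, had 20.6, 21.7 and 21.9 FPKM in the Con. libraries, 33.0, 31.4 and 30.1 in the PTZ libraries, and 43.1 and 36.9 in the Q808 libraries. The groups did not overlap and stood in the order Con., PTZ, Q808. Its means were 21.4 ± 0.696, 31.5 ± 1.48 and 40.0 ± 4.36 FPKM, a ratio of 1.47 between PTZ and Con. and of 1.27 between Q808 and PTZ. PTZ-3, which was extreme in the contractile genes, was the lowest PTZ library for Tpm4.

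Flna, which crosslinks actin and ties it to integrins, measured 4.36, 4.12 and 5.81 FPKM in the Con. libraries, 6.02, 9.17 and 9.71 in the PTZ libraries, and 11.4 and 12 in the Q808 libraries. The order of groups was the same and no library overlapped, although PTZ-1 lay close to Con.-3. Means were 4.76 ± 0.912, 8.3 ± 2.0 and 11.7 ± 0.413 FPKM.

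For Vcl, which anchors actin at cell adhesions, the FPKM were 12.1, 9.94 and 15.7 in the Con. libraries, 20.5, 31.0 and 16.3 in the PTZ libraries, and 24.5 and 19.1 in the Q808 libraries. Both treated groups lay above the Con. group and overlapped each other, and the margin between PTZ-3 and Con.-3 was small. The means were 12.6 ± 2.91, 22.6 ± 7.57 and 21.8 ± 3.79 FPKM.

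Vasp, which promotes actin filament growth, had 5.56, 5.26 and 5.34 FPKM in the Con. libraries, 6.92, 8.58 and 9.24 in the PTZ libraries, and 8.83 and 7.91 in the Q808 libraries. The Con. libraries were nearly equal, and the PTZ and Q808 groups overlapped above them. Its means were 5.39 ± 0.152, 8.25 ± 1.19 and 8.37 ± 0.652 FPKM, a ratio of 1.53 between PTZ and Con. and of 1.02 between Q808 and PTZ.

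Rgs5, the pericyte gene, behaved differently again. It stood at 32.5, 38.8 and 38.4 FPKM in the Con. libraries, 35.9, 30.4 and 45.8 in the PTZ libraries, and 83.2 and 39.2 in the Q808 libraries. Only Q808-1 was clearly high, at 2.12 times Q808-2, and Q808-2 exceeded the highest Con. library by little. The group means were 36.6 ± 3.5, 37.4 ± 7.82 and 61.2 ± 31.1 FPKM, and the Q808 mean describes neither of its libraries. In Q808-1 the contractile genes were lower than in Q808-2, at 0.83 (Acta2), 0.77 (Tagln), 0.75 (Myl9) and 0.25 (Cnn1) times its level, while Rgs5 was higher.

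PTZ was first compared with Con. All 9 genes had a higher mean log2(FPKM + 0.1) in the PTZ group, with a median difference of 0.55 (0.01 for Rgs5 to 1.8 for Cnn1), where the median of the 15593 genes tested was -0.04. The call in limma asked for more than 1.5-fold and an unadjusted p under 0.05, and 4 of the 9 were called higher (Cnn1, Flna, Vcl and Vasp), where 1.69% of all genes tested were called higher and 0.84% lower. The groups did not overlap for 5 (these 4 and Tpm4), where 4.11% of all genes lay higher in PTZ without overlap. Nothing is read from these shares, since the comparison entered the choice of the genes. Of all genes tested, 395 were called, and 616 with the replicate number as a block (replicate block), which left 4 of the 9 called. In the same limma fit, 0 genes had a Benjamini-Hochberg adjusted p under 0.05 and 589 an unadjusted p under 0.05.

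For the contractile genes this difference rested on PTZ-3. Among the 5 striatum-poor libraries the PTZ minus Con. difference was -0.45 for Acta2, -0.37 for Tagln and -0.19 for Myl9 on the log2 scale, and among the 3 striatum-rich libraries it was 2.47, 2.11 and 1.83. The pooled differences of 0.52, 0.46 and 0.48 therefore averaged over opposite directions. Cnn1 was higher in both sets, by 1.0 and 3.4. By contrast Tpm4 (0.6 and 0.45), Flna (0.8 and 0.73) and Vasp (0.5 and 0.78) were higher by similar amounts in both sets. Vcl was higher by 1.2 in the first and 0.06 in the second. For these genes and Cnn1 every PTZ library lay above every Con. library, so the direction within each set was fixed in advance. Only the size of the difference could vary between the sets. Without PTZ-1, PTZ-2 or PTZ-3 in turn, 4, 1 and 3 of the 9 were called, and without Con.-1, Con.-2 or Con.-3 it was 1, 1 and 3.

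**Figure D2:**
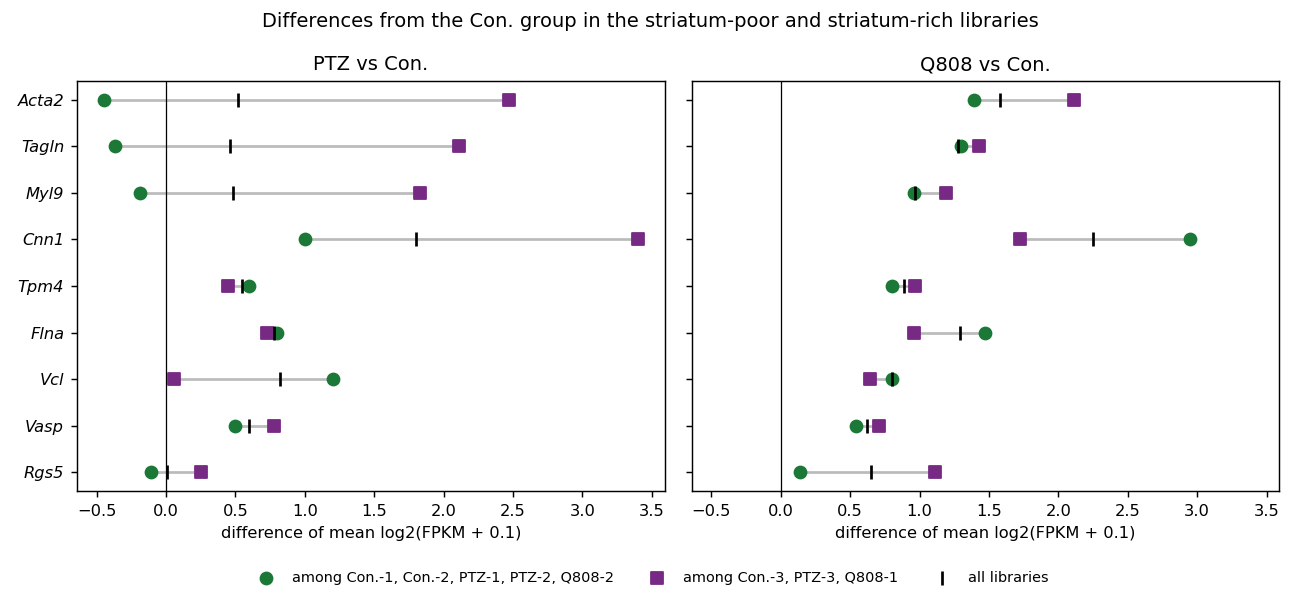
Differences from the Con. group in mean log2(FPKM + 0.1) (x axis) for each of the 9 genes (y axis), for PTZ (left) and Q808 (right), among the 5 striatum-poor libraries (circles), the 3 striatum-rich libraries (squares) and all libraries (ticks). For PTZ the circles of Acta2, Tagln, Myl9 and Rgs5 lie below 0 and the squares above it. For Q808 every point lies above 0, which follows from both Q808 libraries lying above every Con. library.

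Q808 was then compared with PTZ, the comparison that addresses the treatment in kindled rats. The Q808 mean was higher for 8 of the 9 genes, with a median log2 difference of 0.49 (-0.01 for Vcl to 1.06 for Acta2), where all genes tested had a median of 0.1. In limma 0 of the 9 were called (0 at an unadjusted p under 0.05, but 3 called without PTZ-3, 1 without Q808-2, 4 without the striatum-rich libraries and 5 with the replicate block), where 1.36% of all genes were called higher and 0.564% lower, and 2 (Tpm4 and Flna) lay higher in Q808 without overlap, where 10.6% of all genes did so. Over all genes 300 were called, 70.7% of them higher, and after quantile normalization 271, of which 48.3% were higher. No gene had an adjusted p under 0.05 (0 by limma, with 341 at an unadjusted p under 0.05). For the contractile genes the direction differed between the sets of libraries, each of which holds 1 Q808 library. The striatum-rich difference is Q808-1 minus PTZ-3, the highest of all libraries for Acta2, Tagln and Myl9. Acta2, Tagln, Myl9 and Cnn1 were higher in Q808 by 1.84, 1.67, 1.15 and 1.95 among the striatum-poor libraries, and lower among the striatum-rich ones, with differences of -0.36, -0.68, -0.64 and -1.68. Tpm4 (0.2 and 0.52), Flna (0.68 and 0.23) and Rgs5 (0.25 and 0.86) were higher in both sets. For Tpm4 and Flna, whose Q808 and PTZ libraries did not overlap, this direction was fixed in advance.

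Between Q808 and Con. all 9 genes differed in the same direction. Both Q808 libraries lay above all 3 Con. libraries for each of the 9, where 13.3% of all genes tested did so, and the median log2 difference was 0.97 (0.62 for Vasp to 2.25 for Cnn1), where all genes had a median of 0.04. Of the 9, 8 were called higher (all but Rgs5), where 3.07% of all genes were called higher and 0.391% lower. The count was 4 at a 2-fold threshold, 6 without Con.-1, Q808-1 or Q808-2, and 7 or 8 under every other alternative run. The ratios of means were 2.83 for Acta2, 2.43 for Tagln, 1.94 for Myl9, 1.87 for Tpm4, 2.45 for Flna, 1.73 for Vcl, 1.55 for Vasp and 1.67 for Rgs5. Since both Q808 libraries lay above every Con. library, a positive difference within the striatum-poor and striatum-rich sets was fixed in advance. Each set also holds only 1 Q808 library. The Q808 minus Con. difference ran from 0.14 (Rgs5) to 2.95 (Cnn1) in the first set and from 0.64 (Vcl) to 2.11 (Acta2) in the second. Over all genes 540 were called, 88.7% of them higher, and after quantile normalization 441, of which 64.6% were higher. In the limma fit 1 gene, not among the 9, had an adjusted p under 0.05. This comparison shares its libraries with the others, and PTZ and Q808 cannot be separated in it.

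Genes of the same apparatus outside the 9 were then counted in lists of fixed membership. All list genes named below as called had adjusted p-values of 0.999 in PTZ against Con., 0.952 in Q808 against PTZ and 0.901 in Q808 against Con. by limma with Benjamini-Hochberg adjustment, so none passed an adjusted threshold. They are given as log2 fold change ± SE, and calls rest on the unadjusted p. Where a list or marker list gave 0 calls, 0 of its genes had an unadjusted p under 0.05. Of 18 further contractile genes, 17 could be tested (Myocd, the coactivator of SRF in muscle, was under the filter). Between PTZ and Con. 2 were called, both higher, Des (desmin, 0.91 ± 0.38) and Smtn (smoothelin, 0.61 ± 0.25), and the list median was 0.28. Without PTZ-3, Con.-1 or Con.-3 in turn 0 genes of the list were called, with fold changes of 0.62, 0.81 and 0.75 for Des and 0.65, 0.44 and 0.61 for Smtn. Ppp1r12a, a subunit of myosin phosphatase, had 0.4 ± 0.14 and stayed under the fold threshold.

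In Q808 against PTZ, 1 contractile gene was called, Itga8, the integrin alpha 8 chain, which rose (0.94 ± 0.34), and Ppp1r12a had -0.5 ± 0.21. The list median was 0.5, and the count was 8 without PTZ-3 and 0 without PTZ-1, PTZ-2 or Q808-1, and Itga8 was not called without Q808-2 either. Against Con., 6 of 17 rose in Q808 and 0 fell, with a list median of 0.65, and without Q808-2 the count was 3. They were Actg2 (smooth muscle gamma actin, 2.41 ± 0.55), Cald1 (caldesmon, 0.88 ± 0.19), Myh11 (smooth muscle myosin heavy chain, 1.17 ± 0.35), Tpm2 (a tropomyosin, 0.93 ± 0.3), Des (1.03 ± 0.35) and Kcnmb1 (a potassium channel subunit, 1.13 ± 0.45). Myh11 shared the pattern of Acta2, with 3.15, 3.22 and 1.99 FPKM in the Con. libraries, 2.6, 2.12 and 8.61 in the PTZ libraries, and 4.71 and 8.27 in the Q808 libraries. Actg2, like Cnn1, was scarce, with 2, 1 and 2 steps in the Con. libraries, 1, 8 and 29 in the PTZ libraries and 8 and 30 in the Q808 libraries. For both genes the high libraries were PTZ-3 and Q808-2. Kcnmb1 was scarcer still, with 0.0863, 0.0565 and 0.029 FPKM in the Con. libraries and a mean of 0.145 over the 8 libraries. Its log2 difference from Con. in Q808 ran from 0.24 to 1.96 over the settings that left out no single library.

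The pericyte list held 14 genes besides Rgs5, of which 13 could be tested (Cd248 was listed at 0 throughout). None was called between PTZ and Con. (0 by limma in either direction), where Kcnj8, a potassium channel subunit, had 0.46 ± 0.26 and Cspg4 (NG2) 0.22 ± 0.21, and the median was 0. In Q808 against PTZ, Vtn (vitronectin, made by brain pericytes) was called higher (1.0 ± 0.34), Notch3 had 0.61 ± 0.36, and the median was 0.53. Against Con., 3 of 13 rose in Q808, Vtn (1.06 ± 0.2), Anpep (an aminopeptidase, 0.9 ± 0.31) and Cspg4 (0.74 ± 0.28), with a median of 0.49. The summed FPKM of the 14 genes was 35.8 to 44.9 in the Con. group, 29.0 to 63.9 in the PTZ group, and 74.8 in Q808-1 beside 53.5 in Q808-2, so Q808-1 was highest here as it was for Rgs5. Without Q808-2 the count against Con. was 6, and without any other single library it was 1. The call of Vtn against PTZ was lost without PTZ-1, PTZ-2 or Q808-2.

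Among 22 other actin linkers, Tagln2 (0.75 ± 0.17) and Cnn2 (0.88 ± 0.24), the relatives of Tagln and Cnn1 found outside smooth muscle, rose in PTZ against Con., with a list median of 0.17. Cnn2 had 2.43, 2.05 and 2.02 FPKM in the Con. libraries, 4.43, 4.7 and 3.18 in the PTZ libraries, and 5.78 and 4.69 in the Q808 libraries, so both treated groups lay above Con. without PTZ-3 standing out. Q808 against PTZ gave 0 calls by limma and a median of 0.22, and Tns1 (tensin) had 0.48 ± 0.24. In Q808 against Con. 4 of 22 rose and 0 fell, Cnn2 (1.23 ± 0.23), Tagln2 (0.99 ± 0.27), Pxn (paxillin, 0.73 ± 0.19) and Tns1 (0.74 ± 0.19), with a median of 0.43. Without Q808-1 this count was 1, without Q808-2 it was 8 and without Con.-3 it was 7. Without Q808-2 the count against PTZ was 3.

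The general actin and myosin genes of all cells had negative list medians in both Q808 comparisons. Of 12, 11 could be tested (Myh9 was listed at 0 in 7 of the 8 libraries), 0 were called between PTZ and Con. or between Q808 and PTZ by limma, and their medians were 0.09 (10 of 11 higher in PTZ) and -0.29 (1 of 11 higher in Q808). Actg1 (gamma actin) had 0.21 ± 0.13 and -0.38 ± 0.2 in these comparisons, Cfl1 (cofilin) had 0.23 ± 0.17 in the first, and Myl12a, a non-muscle light chain, 0.52 ± 0.32 in the second. In Q808 against Con. the median was -0.19, 1 gene was called (Myl12a, 0.61 ± 0.23) and Capzb, which caps actin filaments, had -0.25 ± 0.23. Without Con.-2, Con.-3 or Q808-1 the count was 0. The negative medians of both Q808 comparisons were also negative under quantile normalization and median ratio scaling.

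SRF, its coactivators and targets were counted as 12 genes. Fhl2, a LIM protein of the SRF pathway, rose in PTZ against Con. (0.88 ± 0.22) and fell in Q808 against PTZ (-0.8 ± 0.28), the only call in each of these comparisons, but it is among the genes that the study picked from these libraries. Its FPKM were 5.18, 4.78 and 5.34 in the Con. libraries, 9.58, 12.1 and 7.22 in the PTZ libraries, and 4.85 and 5.94 in the Q808 libraries. This is another order of libraries than that of the 9 genes. Tgfb1i1 had 0.42 ± 0.2 in the first comparison and Ccn2 0.65 ± 0.35 in the second. In Q808 against Con. Filip1l rose (0.99 ± 0.34), and Lmcd1 had 0.58 ± 0.18 without reaching 1.5-fold. The call of Fhl2 against PTZ was lost without PTZ-1, PTZ-2 or Q808-1, and that of Filip1l without any single library other than Con.-3. Srf itself had 16.7, 16.3 and 23.8 FPKM in the Con. libraries, 21.1, 31.4 and 18.2 in the PTZ libraries and 20.2 and 18.1 in the Q808 libraries, with overlapping groups. The list medians were 0.22, 0.25 and 0.18, and the second was -0.01 under quantile normalization.

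**Figure D3:**
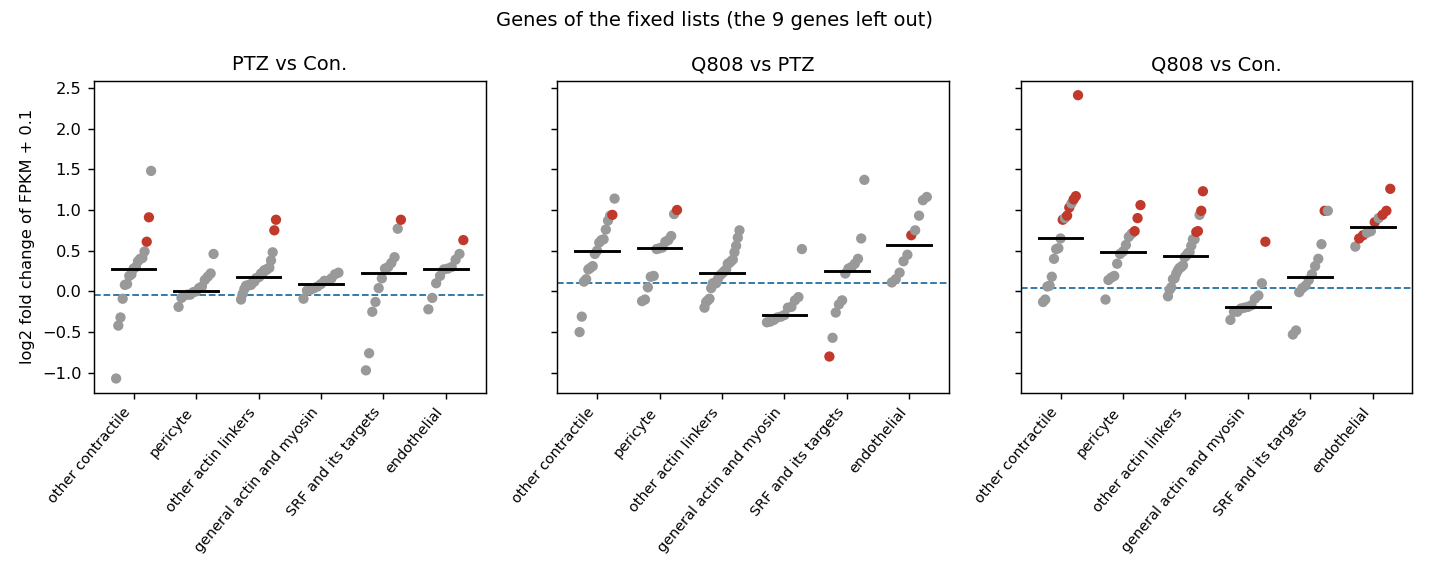
Log2 fold change of FPKM + 0.1 (y axis) of the genes of 6 lists (x axis, the 9 genes left out) in the 3 comparisons, with called genes in red, list medians as black bars and the median of all genes tested as a dashed line. Among these 6 lists the contractile and endothelial medians are highest in Q808 against Con., at 0.65 and 0.79. The medians of the general actin and myosin genes lie below the dashed line in both Q808 comparisons. Marker lists not drawn had medians in Q808 against Con. of 1.98 (erythroid), 0.91 (fibroblast), 0.74 (microglia), 0.67 (choroid plexus), 0.53 (oligodendrocyte), 0.11 (striatal) and -0.31 (dentate), so higher medians were not particular to the vessel wall.

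Markers of other cells of the vessel and its surroundings were summed in each library. The 10 endothelial markers summed to 94.8 to 102 FPKM in the Con. group, 90.0 to 174 in the PTZ group and 125 to 217 in the Q808 group, with PTZ-3 and Q808-1 highest. Of these 10, 1 rose in PTZ against Con. (Pecam1, 0.63), 1 in Q808 against PTZ (Eng, 0.69) and 6 in Q808 against Con. (Cldn5, Eng, Erg, Esam, Tek and Vwf), with medians of 0.27, 0.57 and 0.79. Of the 10 fibroblast markers, 9 could be tested, and their sums were 61.7, 59.4 and 15.4 FPKM in the Con. libraries, 35.2, 33.1 and 57.6 in the PTZ libraries, and 34.4 and 166 in the Q808 libraries. The sums thus overlapped between the groups, with Con.-1 and Con.-2 above PTZ-3 and Q808-1. In the mean log2 value of these markers, minus the mean of the Con. libraries, the order was another. PTZ-3 (0.88) and Q808-2 (1.6) stood above Con.-1 (0.67) and Con.-2 (0.34), and Q808-1 (0.16) below them. Col1a1, Col3a1, Islr and Lum were highest in Q808-2 and next in PTZ-3, while Col1a2, Col6a1, Dcn, Igf2, Ogn and Slc6a13 had other orders. The calls were 0, 1 (Slc6a13, higher in Q808 than in PTZ) and 1 (Col6a1, higher in Q808 than in Con.) in the 3 comparisons.

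Choroid plexus markers summed to 6440 FPKM in Q808-2, to 2530 and 2510 in Con.-1 and Con.-2, and to 91.8 to 493 in the other 5 libraries, with 0 of 7 tested genes called in any comparison by limma and Otx2 at 0 throughout. Con.-3, with the lowest sum at 91.8, was also the lowest library for Acta2, Tagln and Myl9. PTZ-3, Q808-1 and Q808-2, with sums of 493, 163 and 6440, were all high for these genes, and Con.-1 and Con.-2 were low. The beta globin gene Hbb was at 100 to 213 FPKM in the Con. libraries, 179 to 313 in the PTZ libraries and 685 and 668 in the Q808 libraries, and 3, 2 and 3 of 4 tested erythroid genes were called higher in the 3 comparisons, of which Hbb and Alas2 are among the genes that the study picked from these libraries. Microglial markers summed to 102 to 111, 99.0 to 154 and 124 to 218, with 1 call each (Tmem119 and Aif1, higher) in the comparisons with Con. and 0 in Q808 against PTZ. Of the striatal, dentate and oligodendrocyte markers 0 were called in any comparison, though some medians were as large as those of the vessel lists. In Q808 against PTZ the medians were 0.77 (striatal, 7 of 7 higher), -0.07 (dentate) and 0.5 (oligodendrocyte, 8 of 8 higher). In Q808 against Con. they were 0.11, -0.31 and 0.53, with 8 of 8 oligodendrocyte markers higher. The part of these cells and of the remaining blood in the levels of the 9 genes was not tested.

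**Figure D4:**
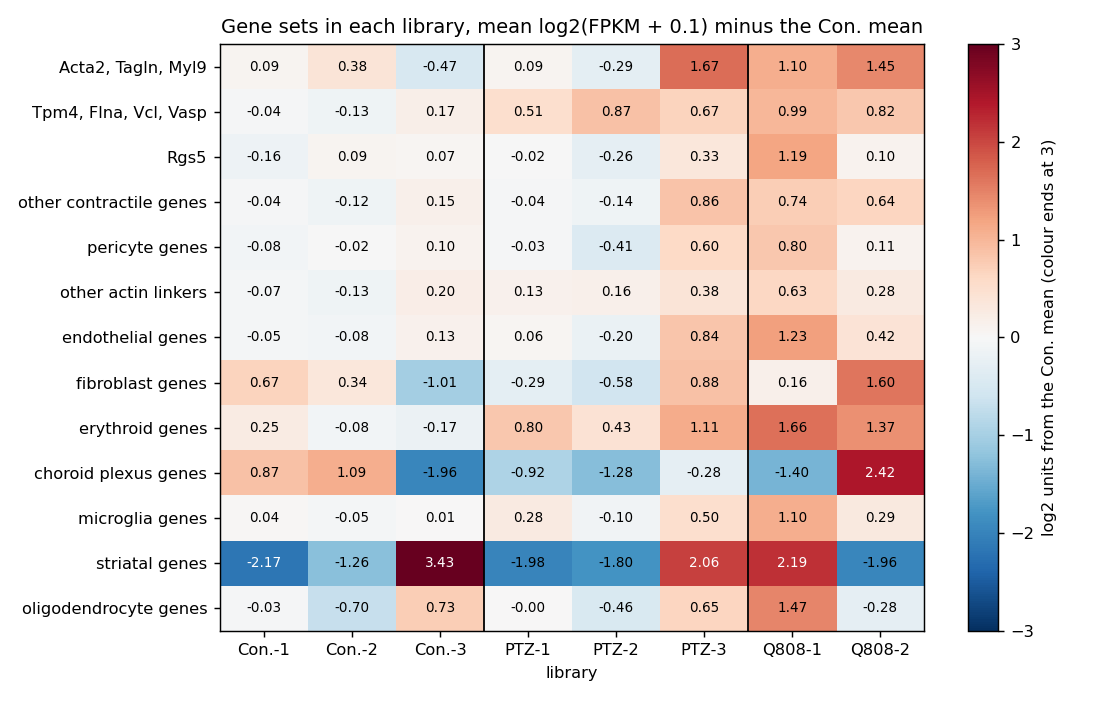
Mean log2(FPKM + 0.1) of gene sets (rows) in each library (columns), minus the mean of the Con. libraries, with the value printed in each cell and the colour ending at 3. Acta2, Tagln and Myl9 stand at 1.67 in PTZ-3, 1.1 in Q808-1 and 1.45 in Q808-2. Rgs5 is highest in Q808-1 at 1.19, as are, among other rows, the endothelial (1.23), microglia (1.1), oligodendrocyte (1.47) and erythroid genes (1.66). The striatal genes divide the libraries across the groups.

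The 9 genes were also standardized and averaged in each library, and the genes nearest to that mean were looked up. The mean standardized log2 value was -0.87, -0.69 and -0.89 in the Con. libraries, -0.18, -0.06 and 0.87 in the PTZ libraries, and 0.99 and 0.84 in the Q808 libraries. In this mean PTZ-1 and PTZ-2 lay between the Con. libraries and the other 3. For Acta2 and Tagln, however, both lay inside the Con. range, and for Rgs5 PTZ-2 was the lowest library. Of 12555 genes whose mean FPKM reached 1, the 10 with the highest Pearson correlation with the mean standardized value over the 8 libraries, which share their groups, were Gmfg (0.955), Sdc4 (0.955), Rex1bd (0.947), Gstz1 (0.945), B4galt1 (0.943), Smad6 (0.942), Uaca (0.939), Ecm1 (0.936), Gpc2 (0.934) and Wdfy1 (0.933). Smad6, an inhibitor of BMP signalling, had means of 0.612 ± 0.174, 1.11 ± 0.356 and 1.85 ± 0.0418 FPKM in the Con., PTZ and Q808 groups. Sdc4, the heparan sulfate proteoglycan syndecan 4 of cell adhesions, had 23.9 ± 1.57, 27.5 ± 2.41 and 32.7 ± 1.24 FPKM. These genes were found by a search for the highest correlations, so the correlations are a description.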

How the data were processed

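Hippocampal RNA of 8 rats (3 Con., 3 PTZ, 2 Q808) was measured by RNA sequencing. The authors removed adapters and poor reads with Trimmomatic, and the FPKM of each gene that they deposited came from Cufflinks. The submitters' processing notes also name Bowtie2, HISAT2, StringTie, SAMtools, HTSeq and DESeq, with no versions, and the genome build is not given in the sources used here. FPKM are scaled by gene length and by mapped fragments, so a few very abundant genes can shift all others, and strand and multi-mapped reads cannot be checked. Counting error cannot be computed from them, and only relative depth was read from their smallest steps. The replicates are single rats.

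Groups were taken from the labels. Comparisons were fitted with limma 3.58.1 in R 4.3.3 (empirical Bayes with a trend) on log2(FPKM + 0.1) of the 15593 genes with a mean of at least 0.1, each comparison on its own 2 groups, with Benjamini-Hochberg adjustment over all of them. A fold change on this scale understates that of scarce genes. The fold threshold of 1.5 is that of the study's methods, read as a fold. Tables and plots were made in Python 3.11.15 with pandas 2.3.3, numpy 2.4.6 and matplotlib 3.10.9. The fit was also tested on simulated data, in which 200 genes had known changes. The members and lists were chosen with earlier results of these data known, and so was the division of the libraries into 5 and 3. Named genes were the 9 genes, from each list of the apparatus the 2 with the smallest p in each comparison and all called, called marker genes, and the 10 genes of like pattern. A list gene that this rule names is not reported here. A few others (Srf, Hbb, and the marker genes listed at 0) were named after their values were seen. Symbols, and promoters of GRCr8, came from RefSeq.

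Same-numbered PTZ and Con. libraries shared deviations from the means of their groups (correlations over genes, 0.309, 0.392 and 0.472), so the replicate number was also fitted as a block. No source says that a number marks a shared batch, and Con.-2 and PTZ-1 reached 0.452. Every PTZ and Con. pair within the striatum-poor or striatum-rich set was positive (0.12 to 0.472), and every pair across the sets was negative (-0.251 to -0.523). Same-numbered PTZ and Con. libraries always fell in the same set, so number and set cannot be told apart by these correlations. The alternatives were pseudocounts of 1 and 0.01, no filter, a filter at a mean of 1 FPKM, all groups in 1 fit, no trend, quantile normalization, median ratio scaling, the block, a 2-fold threshold, each library left out, and the 3 striatum-rich libraries left out. Behavioural, qRT-PCR and protein data were not analysed here.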

Additional observations from a re-analysis of the deposited data

How the results depend on the processing

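Depth in fragments is unknown, groups hold 2 or 3 rats, and tests without a library leave 1 Q808 rat that is assumed to vary like the other group. PTZ against Con. gave 395 called genes, 219 at a pseudocount of 1, 191 at 2-fold, 616 with the replicate block and 1530 without the striatum-rich libraries (with a library left out, 249 without PTZ-2 to 1135 without PTZ-3, and 639 without Con.-3). Q808 against PTZ gave 300, 193 at a mean FPKM of at least 1, 183 at 2-fold, 1894 with the replicate block and 1444 without the striatum-rich libraries (132 without PTZ-1, 149 without PTZ-2, 1301 without Q808-2 and 1569 without PTZ-3). Q808 against Con. gave 540, 340 at a pseudocount of 1, 257 at 2-fold and 1076 with the replicate block (279 without Con.-2, 351 without Q808-1 and 1799 without Q808-2). Same-numbered Q808 libraries had correlations of -0.439 and 0.416 with PTZ and of -0.463 and 0.661 with Con. With only 2 Q808 libraries, the deviations of Q808-1 are those of Q808-2 with the sign reversed. These correlations therefore cannot show whether same-numbered libraries deviated together, and the block values of both Q808 comparisons rest on numbers alone.

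Log2 differences that changed sign were, for PTZ against Con., Acta2 -0.45, Tagln -0.37, Myl9 -0.19 and Rgs5 -0.11 without the striatum-rich libraries, Acta2 -0.12, Tagln -0.21 and Rgs5 -0.14 without PTZ-3, and Rgs5 -0.07 without Con.-1. For Q808 against PTZ they were Cnn1 -0.42, and Vcl 0.17, without Q808-2, Vcl 0.24 without PTZ-2 and 0.00 (just above 0) under quantile normalization, and Vasp -0.09 under quantile normalization, -0.06 under median ratio scaling, -0.09 without PTZ-1 and -0.05 without Q808-1. No sign of the 9 genes changed in Q808 against Con. under any of these settings. With libraries left out this was fixed in advance, since both Q808 libraries lay above every Con. library. At the other end of the left-out libraries stood 0.95 (Acta2), 0.83 (Tagln) and 0.15 (Rgs5) without PTZ-2 for PTZ against Con., and 1.32 (Cnn1) without Q808-1 and -0.22 (Vcl) and 0.12 (Vasp) without PTZ-3 for Q808 against PTZ. The cause of these changes was not tested.

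Counts in the lists moved as follows, with the ranges over left-out libraries in parentheses. For PTZ against Con., contractile genes went from 2 to 1 at a pseudocount of 1, without a filter, at a mean FPKM of at least 1 and with all groups in 1 fit, and to 0 at 2-fold and without the striatum-rich libraries (0 to 2), actin linkers from 2 to 0 at 2-fold, and SRF genes from 1 to 2 with the replicate block, 3 without the striatum-rich libraries and 0 at 2-fold (1 to 2). For Q808 against PTZ, contractile genes went from 1 to 0 under quantile normalization and at 2-fold, 10 with the replicate block and 6 without the striatum-rich libraries (0 to 8), pericyte genes from 1 to 5 with the replicate block (0 to 4), actin linkers from 0 to 1 without a filter or a trend and 3 with the replicate block (0 to 3), general actin genes from 0 to 1 with the replicate block and without the striatum-rich libraries (0 to 1), and SRF genes from 1 to 3 in those settings and 0 at 2-fold (0 to 3). For Q808 against Con., contractile genes were 6 (3 to 5), pericyte genes went from 3 to 1 under quantile normalization, with the replicate block, at 2-fold and without the striatum-rich libraries (1 to 6), actin linkers from 4 to 8 with the replicate block and 1 at 2-fold (1 to 8), general actin genes from 1 to 0 in 6 settings (0 to 1), and SRF genes from 1 to 0 at a pseudocount of 1, at a mean FPKM of at least 1, under quantile normalization and at 2-fold, 2 at a pseudocount of 0.01 and 3 with the replicate block (0 to 2).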

Other observations

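The annotation deposited with the values assigns genes to pathways, and these were counted as well. Over all genes tested, 1.69%, 1.36% and 3.07% were called higher in PTZ against Con., in Q808 against PTZ and in Q808 against Con. Of 107 tested genes of vascular smooth muscle contraction, 4 (3.74%) were called higher and 2 lower in PTZ against Con., 0 in Q808 against PTZ (limma, with 2 genes at an unadjusted p under 0.05), and 11 (10.3%) higher and 0 lower in Q808 against Con., where Acta2, Actg2, Cald1, Kcnmb1, Myh11 and Myl9 stood beside the peptide hormone Avp, the adrenomedullin receptor genes Calcrl and Ramp3, the cyclase Adcy4 and the phospholipase Pla2g3. The 4 higher in PTZ were Adm, Avp, Pla2g3 and Pla2g4a, none of them a part of the contractile apparatus. Of 182 tested focal adhesion genes, 11 (6.04%) were called higher between PTZ and Con., 6 (3.3%) between Q808 and PTZ and 20 (11%) between Q808 and Con., and 0 were called lower. Those called in PTZ against Con. held Flna, Vasp and Vcl together with the matrix genes Fn1 and Col4a1. Of 180 tested genes that regulate the actin cytoskeleton, 4 (2.22%), 3 (1.67%) and 11 (6.11%) were called higher and 0, 2 and 0 lower in the same order of comparisons. These pathways overlap with each other and hold 2 (Acta2, Myl9), 4 (Flna, Myl9, Vasp, Vcl) and 2 (Myl9, Vcl) of the 9 genes, in the order given. All of these count among the genes called higher in Q808 against Con., and Flna, Vasp and Vcl also in PTZ against Con. Since the 9 genes were chosen by their values in these libraries, the shares are raised by that choice and nothing is read from them. All genes named here were chosen by their calls.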
